A study of Mus musculus with 6 samples.

Results

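The NF-kappaB genes described here are the 5 genes that encode the subunits of this transcription factor (Nfkb1, Nfkb2, Rel, Rela and Relb) and 5 grouped here as its inhibitors (Nfkbia, Nfkbib, Nfkbiz, Tnfaip3 and Bcl3). The name of the second group is a label only, since Nfkbiz and Bcl3 encode nuclear IkappaB proteins, whose effect on NF-kappaB was not measured. They were chosen by symbol, and all 10 were found among the 37411 gene rows of the deposited count table. The cells were hippocampal neurons cultured from P0 CD-1 IGS mouse pups and kept for 16 days in vitro. The control group, of 3 libraries, received DMSO, the solvent. The other group, also of 3 libraries, received 50 µM forskolin in an equal volume, which activates adenylyl cyclase and raises cyclic AMP, and both treatments lasted 30 min. No genetic alteration is labelled in either group. The DMSO libraries are numbered 1, 2 and 3 and the forskolin libraries 4, 5 and 6. The labels do not say whether the libraries came from separate cultures, and give no batch, so p-values measure the spread between these libraries, which may be technical.

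NF-kappaB is a family of dimers built from proteins that share a Rel homology domain. RelA, c-Rel and RelB, made by Rela, Rel and Relb, carry a transactivation domain, whereas p50 and p52, cut from the precursors of Nfkb1 and Nfkb2, do not. In resting cells the dimers are held in the cytoplasm by IkappaB proteins such as those of Nfkbia and Nfkbib. When the IkappaB kinase marks these for breakdown, the dimers enter the nucleus and switch on, among other genes, their own inhibitors. In brain tissue the pathway is best known for inflammatory signalling in microglia and astrocytes, and it has also been studied in neurons at synapses.

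Promoter sequences are shown first because several of these genes are known targets of NF-kappaB, and because forskolin acts through CREB, which binds the cyclic AMP response element TGACGTCA or the shorter TGACG. RefSeq promoters (GRCm38.p6) were matched for 7 of the 10 genes, in 10 windows of 250 bases before an annotated start. The kappaB consensus, a motif of 10 bases, was found in 6 of these 10 windows, which belong to 4 genes (Nfkb2 with 3 windows, Rel, Nfkbia and Tnfaip3), and in 3.90% of all 32851 windows of that length. TGACG, searched on both strands, was found in 5 of the 10 windows, also of 4 genes (Nfkb2 with 2 windows, Rel, Nfkbib and Tnfaip3), and in 17.8% of all windows. The full TGACGTCA, which contains TGACG, was found in 0 of the 10 windows and in 1.55% of all windows. Capitals mark kappaB and TGACG matches on either strand, and a match is a run of letters, not a shown binding site. The stretch of Rela is given as one with neither motif. Stretches inside an exon that GENCODE M21 annotates for the gene are left out, except for a site of 30 bases at Nfkb2. Also not shown, though outside such exons, are the stretches of Nfkbib, which holds a TGACG match, and Bcl3, which holds neither motif. Further windows of Nfkb2 and Tnfaip3 are not shown either.
Nfkb2: TGACGcacgggatCGTCAcGGGAATTCCCC
Rel: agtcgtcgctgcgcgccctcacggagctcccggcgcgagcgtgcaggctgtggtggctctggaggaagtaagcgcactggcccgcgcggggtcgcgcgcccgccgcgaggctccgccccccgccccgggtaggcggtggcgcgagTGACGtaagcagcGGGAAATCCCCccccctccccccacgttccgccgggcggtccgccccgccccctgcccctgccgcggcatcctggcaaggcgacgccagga
Rela: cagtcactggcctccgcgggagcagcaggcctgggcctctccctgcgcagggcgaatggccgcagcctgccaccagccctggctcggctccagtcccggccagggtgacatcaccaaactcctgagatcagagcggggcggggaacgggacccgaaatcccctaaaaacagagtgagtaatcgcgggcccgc
Nfkbia: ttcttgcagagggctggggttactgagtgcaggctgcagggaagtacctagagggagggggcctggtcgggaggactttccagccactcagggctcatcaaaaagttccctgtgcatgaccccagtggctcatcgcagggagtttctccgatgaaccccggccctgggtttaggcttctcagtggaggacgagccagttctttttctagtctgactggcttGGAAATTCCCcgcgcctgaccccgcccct
Tnfaip3: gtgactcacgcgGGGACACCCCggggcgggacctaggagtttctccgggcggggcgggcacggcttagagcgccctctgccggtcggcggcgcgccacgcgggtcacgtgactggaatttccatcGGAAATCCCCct
The stretches lie at chr19:46304679-46304708 (plus strand) for Nfkb2, chr11:23770971-23771219 (minus strand) for Rel and chr19:5637291-5637482 (plus strand) for Rela. Those of Nfkbia and Tnfaip3 lie at chr12:55492648-55492897 and chr10:19015411-19015547, both on the minus strand. The kappaB match of Nfkbia spans bases 29 to 20 before the start, and those of Rel lie between bases 92 and 82. Tnfaip3 has one between bases 125 and 116 and one between bases 12 and 3.

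Library depth, composition and quality differed within the forskolin group, and the mitochondrial ribosomal RNA share differed between the groups. Total counts ran from 28342764 to 35304310 in the DMSO libraries and from 34139191 to 47548379 in the forskolin libraries. The 2 mitochondrial ribosomal RNA genes held 14.0 to 23.7% of counts with DMSO and 26.9 to 33.3% with forskolin. Every forskolin library, library 6 included, was thus above every DMSO library in this share, and its part in the comparisons was not tested. The sum over 12 neuron markers came to 4414 to 5647 CPM (counts per megaread of library size, after TMM normalisation) in the DMSO libraries and to 3304 to 5215 CPM in the forskolin libraries, and that over 12 astrocyte markers to 7462 to 8197 and 7356 to 9013 CPM. Markers of both neurons and glia were thus present in cultures labelled as neurons. The sum over 12 microglia markers stood at 34.7, 24.5 and 23.0 CPM with DMSO (libraries 1, 2 and 3) and at 221, 373 and 24.6 CPM with forskolin (libraries 4, 5 and 6). Of the 12 microglia markers, 11 were highest in libraries 4 and 5, and none was at 0 in any library. Because libraries 4 and 5 stand apart in this way and library 6 does not, tests of the members and of the named pathway genes are given with and without library 6. In bulk RNA, a change in the number of cells of a type and a change in RNA per cell cannot be told apart.

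With DMSO, Nfkbia and Rela were the members with the highest transcript levels per length. Per kilobase of the longest annotated transcript, Nfkbia stood at 17.0 ± 2.20 CPM per kb and Rela at 9.24 ± 0.552 CPM per kb (SD, n = 3). Nfkb1 (5.84 ± 0.435 CPM per kb) and Nfkbib (5.79 ± 0.257 CPM per kb) followed and overlapped each other. Nfkbiz (2.70 ± 0.306 CPM per kb) and Relb (2.61 ± 0.275 CPM per kb) also overlapped each other, and Relb overlapped Nfkb2 (1.90 ± 0.424 CPM per kb). Tnfaip3 (0.660 ± 0.0433 CPM per kb), Rel (0.142 ± 0.00357 CPM per kb) and Bcl3 (0.0521 ± 0.0463 CPM per kb) were lower in turn, each below every DMSO value of the gene before it. By the means of the forskolin libraries, Nfkbia, Rela and Nfkb1 were again at ranks 1, 2 and 3, and 3 pairs of neighbours exchanged places: Nfkbiz and Nfkbib, Nfkb2 and Relb, and Bcl3 and Rel. The forskolin libraries did not share 1 order. Nfkbiz reached 7.07, 12.2 and 3.73 CPM per kb in libraries 4, 5 and 6, so that in library 5 it was above Rela (9.77 CPM per kb) and Nfkb1 (9.28 CPM per kb). Nfkbib stood at 3.85, 3.46 and 2.49 CPM per kb there, below Nfkbiz in each. These levels rest on GENCODE M21 transcript lengths, which need not be those of the authors' annotation.

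**Figure D1:**
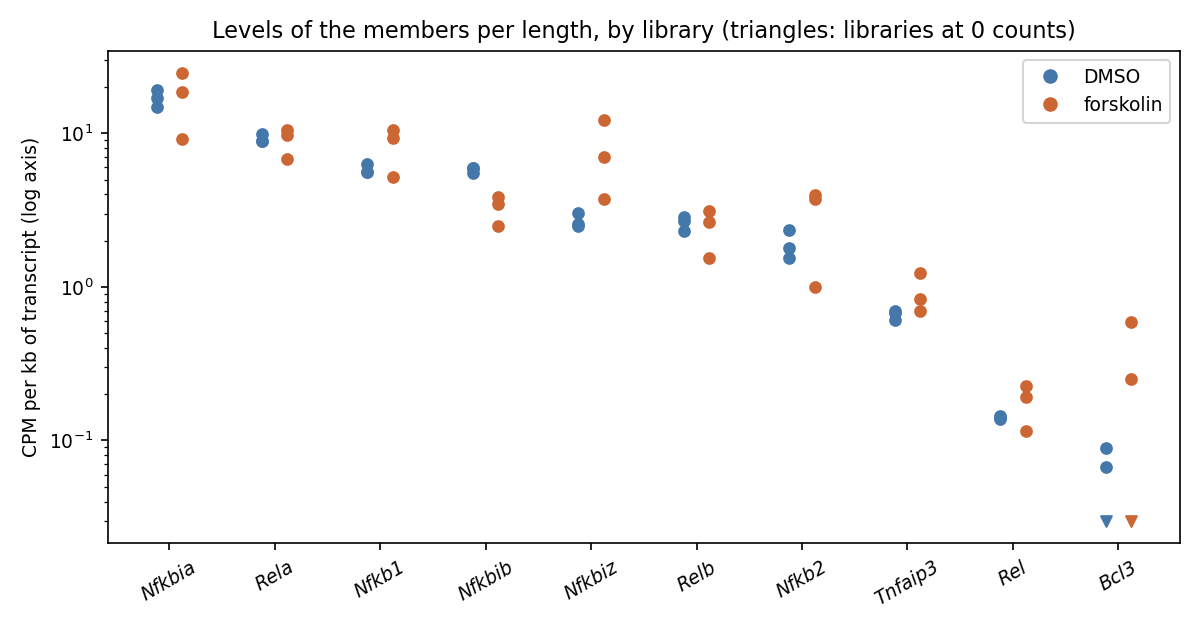
Level of each member in CPM per kilobase of its longest annotated transcript (log axis), with 1 point per library in blue for DMSO and orange for forskolin and triangles for libraries at 0 counts. Genes are ordered by their DMSO mean, from Nfkbia at 17.0 to Bcl3 at 0.0521 CPM per kb.

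With all 6 libraries, none of the 9 members that passed the low-count filter changed by edgeR's quasi-likelihood test at a Benjamini-Hochberg adjusted p under 0.05, where 1.51% of 16233 tested genes did (0.172% higher and 1.34% lower). At an unadjusted p under 0.05 there were 2 of the 9, Nfkbiz and Nfkbib, against 22.3% of all tested genes. Among these 9, Nfkbiz had the highest fitted change and Nfkbib the most negative. Without library 6, 4 of these 9 members passed, Nfkb1, Nfkb2 and Nfkbiz higher and Nfkbib lower. Of the 16233 genes tested with 6 libraries, 15.5% were then called higher and 17.8% lower, and of all 16941 genes tested without library 6, 33.6% were called (16.5% higher and 17.1% lower). Bcl3 was called higher too, but it entered that test only through its counts in libraries 4 and 5, so its call is not counted here. Restricting the counts to genes tested with 6 libraries was chosen after seeing the data. Without any other single library, 0 members and 0 genes in all passed. DESeq2 on the 6 libraries passed 2 members, Nfkbiz higher and Nfkbib lower, where it passed 10.9% of genes (4.90% higher and 6.03% lower). With limma-voom and library quality weights, which gave library 6 the lowest weight of 0.156, 4 members passed, Nfkb1, Nfkb2 and Nfkbiz higher and Nfkbib lower, where 41.9% of genes did (21.0% higher and 20.9% lower). With each library's trend on GC content removed and library 6 left out, 4 of the 9 passed, all higher (Nfkb1, Nfkb2, Rela and Nfkbiz), where 32.1% of all genes in that fit did (16.0% higher and 16.1% lower). For library 6 alone against the DMSO libraries, 0 members passed, where 0.555% of genes did (0.0354% higher and 0.519% lower). The median fitted log2 fold change of the 9 tested members was 0.33, beside 0.02 over all tested genes. It was 0.54 for the same 9 without library 6, 0.12 without library 4 and -0.41 for library 6 alone.

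**Figure D2:**
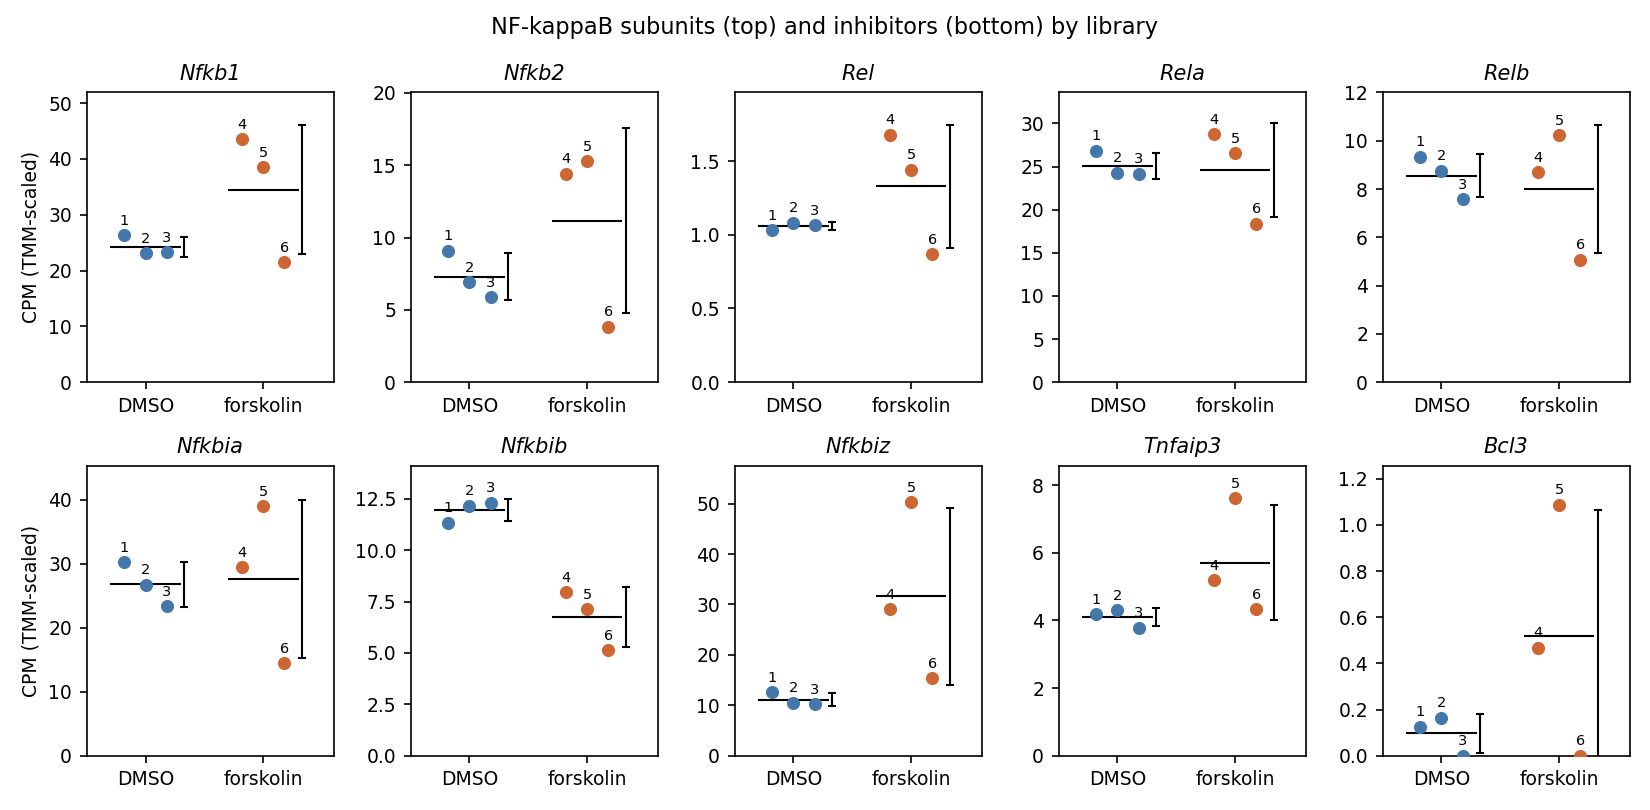
CPM of each member in every library, with the library number above each point, a line at the group mean and a bar for the SD of 3 libraries (the bar of Bcl3 is cut at 0). Nfkbiz and Tnfaip3 have their 3 forskolin points above all DMSO points and Nfkbib has them below.

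Among the subunits, Nfkb1 (chr3:135584655-135691547, minus strand), which encodes the p105 precursor of p50, stood at 26.3, 23.1 and 23.3 CPM with DMSO (libraries 1, 2 and 3, the order used below) and at 43.5, 38.5 and 21.5 CPM with forskolin (libraries 4, 5 and 6). Libraries 4 and 5 were above every DMSO library and library 6 was below them all. The log2 fold change was 0.51 ± 0.26 (SE; edgeR adjusted p = 0.284), and without library 6 it was 0.74 ± 0.11 (SE; edgeR adjusted p = 0.00603).

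Nfkb2 (chr19:46304320-46312385, plus strand), the source of p52 and of the inhibitory precursor p100, had 9.09, 6.92 and 5.89 CPM with DMSO and 14.4, 15.3 and 3.82 CPM with forskolin. Again libraries 4 and 5 were the highest of the 6 and library 6 the lowest. The log2 fold change was 0.62 ± 0.49 (SE; edgeR adjusted p = 0.482), and 1.01 ± 0.20 without library 6 (SE; edgeR adjusted p = 0.0138). The annotation places Psd over part of Nfkb2 on the other strand, and whether the counting used strand is not given in the sources used here.

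Rel (chr11:23736847-23770970, minus strand), which encodes c-Rel, the subunit best known from lymphocytes, was counted 33, 33 and 38 times with DMSO and 79, 49 and 29 times with forskolin. In CPM these are 1.03, 1.08 and 1.07 against 1.68, 1.44 and 0.866. Libraries 4 and 5 lay above the DMSO libraries and library 6 below, as for Nfkb1 and Nfkb2, but Rel did not pass with or without library 6 (edgeR adjusted p = 0.556 and 0.126).

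Rela (chr19:5637483-5648130, plus strand), which encodes the main transactivating subunit p65, had 26.8, 24.3 and 24.2 CPM with DMSO and 28.7, 26.5 and 18.4 CPM with forskolin. The groups overlapped, and the log2 fold change was -0.03 ± 0.18 (SE; edgeR adjusted p = 0.933). Its direction turned with upper-quartile scaling (0.01), without library 1 (0.04), without library 6 (0.12) and with each library's trend on GC content removed (0.41; edgeR adjusted p = 0.340). The GC content of the longest Rela transcript is 59.4%, against a median of 49.5% over tested genes. With the GC trend removed and library 6 left out together, Rela passed at 0.48 ± 0.09 (SE; edgeR adjusted p = 0.0122).

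Relb (chr7:19606217-19629438, minus strand), the partner of p52 in the noncanonical pathway, had 9.34, 8.76 and 7.57 CPM with DMSO and 8.71, 10.2 and 5.08 CPM with forskolin. Library 5 was the highest and library 6 the lowest, so that the groups overlapped (log2 fold change -0.10 ± 0.28 (SE), edgeR adjusted p = 0.858). The direction turned without library 6, where the value was 0.13 (edgeR adjusted p = 0.573). In library 6 all 5 subunits were below every DMSO library, as were 35.3% of all tested genes.

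Among the inhibitors, Nfkbiz (chr16:55811375-55838899, minus strand), which encodes the nuclear IkappaB-zeta, reached 12.6, 10.5 and 10.2 CPM with DMSO and 29.1, 50.3 and 15.3 CPM with forskolin. All 3 forskolin libraries were above all DMSO libraries, library 6 by the least. The log2 fold change was 1.51 ± 0.40 (SE; edgeR adjusted p = 0.121), 1.82 ± 0.24 without library 6 (SE; edgeR adjusted p = 0.00452) and 1.52 ± 0.40 with DESeq2 (SE; adjusted p = 0.00362). For library 6 alone against the DMSO libraries it was 0.50 ± 0.20 (SE; edgeR adjusted p = 0.330), with the single library assumed to vary as the DMSO libraries do. Nfkbiz was the 1 member among the 132 genes of the authors' deposited table, at a log2 fold change of 1.78 ± 0.21 (SE; adjusted p = 2.77e-14). The lowest log2 fold change in that table is 1.50 and the smallest mean normalised count 126, so absence from it need not mean a lack of change. The authors' value for Nfkbiz differs from that of the DESeq2 fit here, and the reason was not tested.

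Tnfaip3 (chr10:19000910-19015657, minus strand), which encodes the ubiquitin-editing enzyme A20, had 4.19, 4.30 and 3.79 CPM with DMSO and 5.18, 7.61 and 4.33 CPM with forskolin. The groups did not overlap, but library 6 was above DMSO library 2 by less than the spread among DMSO libraries. The log2 fold change was 0.48 ± 0.26 (SE; edgeR adjusted p = 0.309) and 0.63 ± 0.22 without library 6 (SE; edgeR adjusted p = 0.0682). Nfkbiz and Tnfaip3 were thus 2 of 9 tested members whose forskolin libraries all lay higher, where 10.3% of all tested genes did.

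Nfkbib (chr7:28758251-28767512, minus strand), which encodes IkappaB-beta, a cytoplasmic inhibitor, had 11.3, 12.2 and 12.3 CPM with DMSO and 7.94, 7.14 and 5.14 CPM with forskolin. Every forskolin library was below every DMSO library, which was so for 16.2% of all tested genes, and library 6 was the lowest. The log2 fold change was -0.82 ± 0.20 (SE; edgeR adjusted p = 0.104), -0.68 ± 0.14 without library 6 (SE; edgeR adjusted p = 0.0149) and -0.81 ± 0.22 with DESeq2 (SE; adjusted p = 0.00451). The GC content of the Nfkbib transcript is 58.8%. After removal of the GC trend it was -0.43 ± 0.16 (SE; edgeR adjusted p = 0.382), and -0.35 with library 6 left out as well (edgeR adjusted p = 0.0941). Sirt2 and Ccer2 overlap Nfkbib on the other strand.

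Nfkbia (chr12:55489410-55492647, minus strand), which encodes IkappaB-alpha, the inhibitor that is rebuilt after each round of activation, had 30.3, 26.7 and 23.3 CPM with DMSO and 29.4, 38.9 and 14.5 CPM with forskolin. Library 5 was the highest of the 6 and library 6 the lowest. The log2 fold change was 0.05 ± 0.34 (SE; edgeR adjusted p = 0.946). It was 0.34 ± 0.17 without library 6 (SE; edgeR adjusted p = 0.160) and -0.85 ± 0.21 for library 6 alone (SE; edgeR adjusted p = 0.150), and the direction turned when library size alone was used for scaling (-0.08).

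Bcl3 (chr7:19808462-19822770, minus strand), which encodes a nuclear IkappaB protein that binds p50 and p52, was counted 4, 5 and 0 times with DMSO and 22, 37 and 0 times with forskolin, so that it was at 0 in libraries 3 and 6. It was the 1 member that did not pass the filter on low counts. With no filter its log2 fold change was 2.41 ± 1.20 (SE; edgeR adjusted p = 0.360). Without library 6 it passed the filter through its counts in libraries 4 and 5 and so had to differ; the fitted value there was 2.98 ± 0.83 (SE). Antisense genes overlap it in the annotation.

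**Figure D3:**
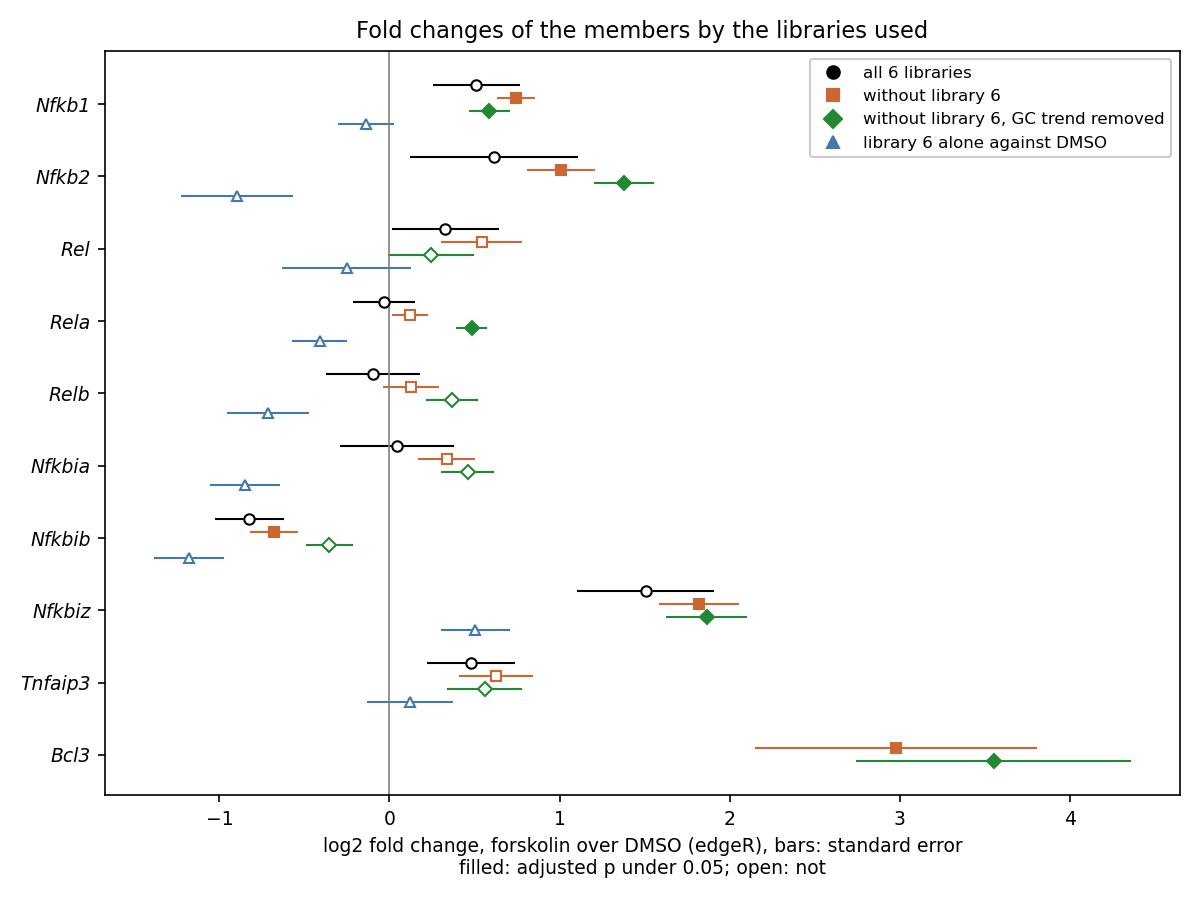
Fitted log2 fold change of each member, forskolin over DMSO, with its standard error, for 4 choices of libraries and correction; filled symbols have an edgeR adjusted p under 0.05. All 5 subunits and Nfkbia lie above 0 without library 6 and below 0 for library 6 alone, whereas Nfkbiz and Tnfaip3 stay above 0 and Nfkbib below it. Bcl3 has symbols only for the fits without library 6. It entered these only through its counts in libraries 4 and 5, so its filled symbols are not counted as calls.

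The members were more spread among forskolin than among DMSO libraries. The SD in CPM was larger in the forskolin group for 10 of 10 members, and for 69.7% of all tested genes. In 5 of the 9 tested members (Nfkb1, Nfkb2, Rel, Nfkbiz and Tnfaip3) and in Bcl3, libraries 4 and 5 were above the other 4, as were 26.6% of tested genes. Library 6 was below every DMSO library in 7 members, the 5 subunits with Nfkbia and Nfkbib, as were 35.3% of tested genes. It was above them in Nfkbiz and Tnfaip3, as were 29.5% of tested genes, and within their range in Bcl3, as were 35.2%. Libraries 4 and 5 are also those with the high microglia markers, whose median log2 ratio over the DMSO mean came to 4.46 and 5.39 there and to -0.15 in library 6. Markers of border macrophages, 6 in number, summed to 2.50 to 3.08 CPM in DMSO libraries and to 32.3, 64.5 and 4.66 CPM in libraries 4, 5 and 6. Neuron markers had medians of -0.81, -0.84 and 0.05 in libraries 4, 5 and 6. The part of these cell types in the values of the NF-kappaB genes was not tested. In library 6, where Nfkbiz was above all DMSO libraries, the summed microglia markers were within the DMSO range and the summed border macrophage markers were above it. Of that sum of 4.66 CPM, Lyve1 made up 3.55 CPM, and it stood at 1.78 to 2.50 CPM with DMSO. Mrc1 (0.388 against 0 to 0.197 CPM) and Ms4a7 (0.508 against 0.224 to 0.437 CPM) were also above every DMSO library there, and the other 3 markers were not.

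**Figure D4:**
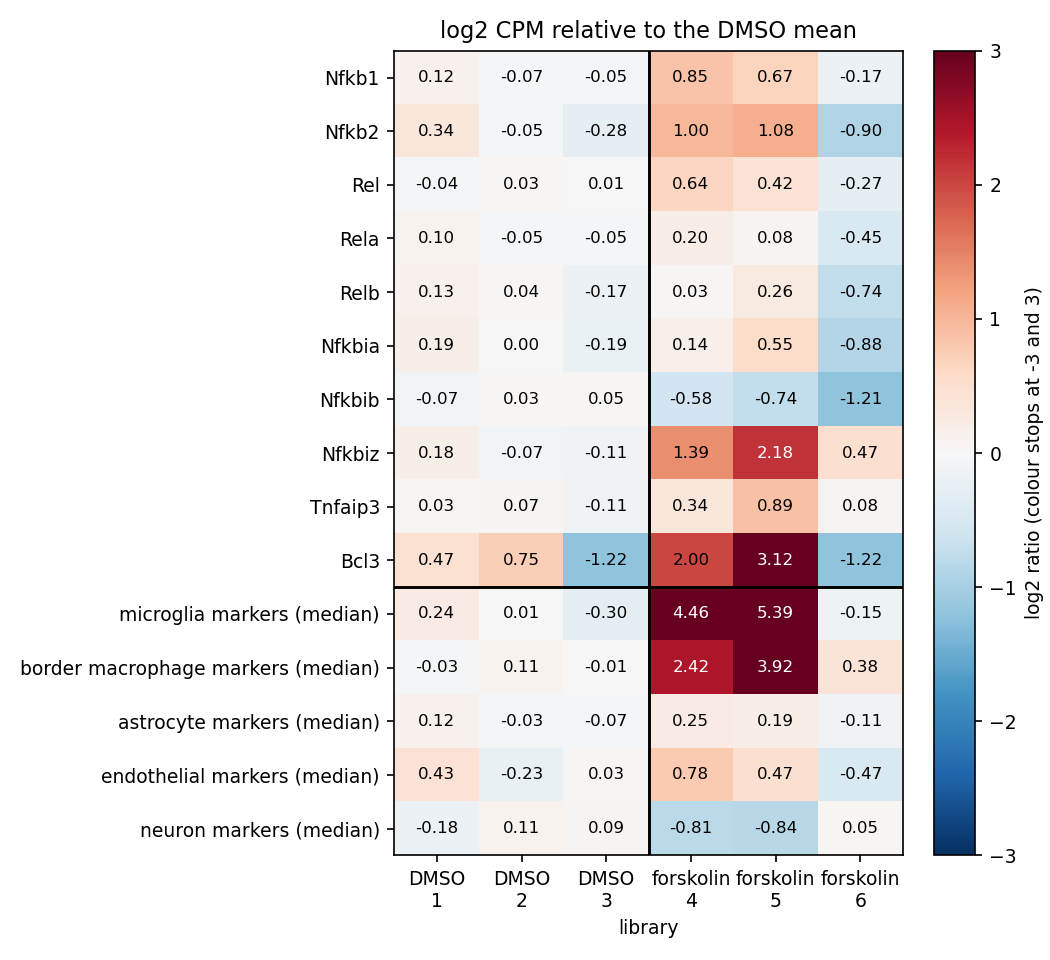
Log2 ratio of CPM (prior count 2) to the mean of the DMSO libraries, for each member and for the median of 5 marker lists, by library. The microglia median is 4.46 and 5.39 in libraries 4 and 5 and -0.15 in library 6, and Nfkbiz is 1.39, 2.18 and 0.47 there.

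Libraries 4 and 5 also differed from each other. The summed microglia markers were 1.69 times as high in library 5 as in library 4, and 11 of the 12 were higher there. Among the members, Bcl3 (2.33 times), Nfkbiz (1.73 times), Tnfaip3 (1.47 times), Nfkbia (1.32 times), Relb (1.17 times) and Nfkb2 (1.06 times) were higher in library 5 than in library 4. The other 4 were lower in library 5, at ratios of 0.858 (Rel), 0.886 (Nfkb1), 0.899 (Nfkbib) and 0.923 (Rela). These are ratios of single libraries and have no replicate check.

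The genes whose pattern over the 6 libraries was most like that of a member were found by the Pearson correlation of log2 CPM among 13446 genes whose mean count was 50 or more. For Nfkbiz these included Lair1 (r = 0.997), which encodes an inhibitory receptor of leukocytes, and Lipa (0.991), which encodes lysosomal acid lipase. For Tnfaip3 they were Aldh1l2 (0.991), Tlr1 (0.985) and Fam129a (0.984), for Nfkbia Rgl3 (0.998), Psrc1 (0.996) and Fgfrl1 (0.995), and for Nfkbib Zdhhc8 (0.997), Srcap (0.997) and Sema4c (0.997). Among the subunits, Relb was most like Myc (0.9998), Nfkb2 like Dnaaf3 (0.999), Nfkb1 like Eogt (0.9997), Rela like Slc4a2 (0.999) and Rel like Mbd1 (0.9945). Among the members, Nfkbia and Relb had a coefficient of 0.983, Nfkbiz and Tnfaip3 0.956, and Nfkb1 and Rel 0.959, whereas Nfkbib and Nfkbiz had -0.56. With 6 libraries, 2 of which stand apart, and many candidates, such values are a description only.

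The rest of the pathway was followed in 80 further genes in 6 lists by role, of which 65 passed the filter. With all 6 libraries 1 of the 65 rose and 0 fell, where 0.172% and 1.34% of all tested genes did, with 23 at an unadjusted p under 0.05, and their median log2 fold change was 0.36. Of all tested genes, 22.3% had an unadjusted p under 0.05. Without library 6, 29 of the same 65 genes rose and 5 fell, where 15.5% and 17.8% of all genes tested with 6 libraries did. DESeq2 on the 6 libraries had 15 rise and 1 fall, where 4.90% and 6.03% of all genes did. The lists below are counted without library 6 over these 65 genes, and each count is to be read against the same 15.5% and 17.8%. In that fit 10 of 11 tested microglia markers were also higher (median log2 fold change 5.09) and 7 of 12 neuron markers lower (median -0.82), and their part in the pathway counts was not tested.

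Upstream, none of the 8 ligand genes (among them Tnf and Il1b, the inflammatory cytokines that activate the canonical pathway) passed the filter with 6 libraries. Tnf was counted 6, 0 and 2 times with DMSO and 31, 73 and 1 times with forskolin, and Il1b 4, 2 and 2 against 14, 30 and 0 times. Both were at their highest in libraries 4 and 5 and within or below the DMSO range in library 6. Without library 6 they entered the test only through libraries 4 and 5, so no call is given for them. Of 10 tested receptor genes none passed with 6 libraries (median log2 fold change 0.88), and without library 6, 8 of the 10 rose and 1 fell (median 1.13). Tnfrsf1b, a TNF receptor, had 0.531, 0.492 and 0.224 CPM with DMSO and 4.33, 8.90 and 0.269 CPM with forskolin, so that library 6 was within the DMSO range (log2 fold change 3.43, edgeR adjusted p = 0.156). Without library 6 it rose by 3.97 on the log2 scale (edgeR adjusted p = 0.00359). Tnfrsf21, a death-domain receptor that is abundant in neurons, had the lowest fitted change of the receptors at -0.37 (edgeR adjusted p = 0.172) and was the receptor gene that fell without library 6 (-0.51, edgeR adjusted p = 0.00924).

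Between receptor and NF-kappaB, 0 of 18 adaptor genes and 0 of 13 kinase genes passed with 6 libraries, with medians of 0.11 and 0.25. Without library 6, 4 of 18 adaptors (22.2%) rose and 3 (16.7%) fell, shares near those of all genes, and 5 of 13 kinases (38.5%) rose and 0 fell. Birc3, a ubiquitin ligase of the receptor complexes and itself a known NF-kappaB target, had the highest value among adaptors with a mean count of at least 20, with counts of 26, 24 and 18 against 107, 105 and 33 (log2 fold change 1.59, edgeR adjusted p = 0.139; without library 6, 1.91 and 0.00727). Rbck1, a subunit of the linear ubiquitin ligase, had the lowest at -0.62 (edgeR adjusted p = 0.100). Without library 6 it was -0.50 (edgeR adjusted p = 0.0139), and after removal of the GC trend -0.12 (edgeR adjusted p = 0.553). Ikbke, an IkappaB kinase relative, ranged from 1.66 to 2.69 CPM with DMSO and reached 6.92, 9.34 and 1.28 CPM with forskolin (log2 fold change 1.52, edgeR adjusted p = 0.234; without library 6, 1.98 and 0.00506). Tab1, a partner of the kinase TAK1, had the lowest value of the kinase list at -0.25 (edgeR adjusted p = 0.240; without library 6, -0.29 and 0.0911), which turned to 0.13 with the GC trend removed.

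Of 13 other inhibitors, 0 passed with 6 libraries (median 0.29), and without library 6, 3 (23.1%) rose and 0 fell. Zc3h12a, the ribonuclease Regnase-1, had the highest value, 1.01 (edgeR adjusted p = 0.278; without library 6, 1.38 and 0.0155). Tnip1, a partner of A20, had the lowest, -0.33 (edgeR adjusted p = 0.223; without library 6, -0.26 and 0.146). Tnip1 turned to 0.03 with the GC trend removed.

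Downstream, 1 of 11 tested target genes rose with 6 libraries (median 1.34), and without library 6, 9 of the 11 rose and 1 fell (median 1.66). The gene that rose was Ptgs2, which encodes the inducible cyclooxygenase and is a known target of CREB as well as of NF-kappaB. It had 3.81, 3.51 and 4.49 CPM with DMSO and 20.8, 24.1 and 12.4 CPM with forskolin, so that library 6 was well above the DMSO libraries (log2 fold change 2.28 ± 0.28 (SE), edgeR adjusted p = 0.0297). With library 6 left out the value was 2.49 (edgeR adjusted p = 0.00176). It did not pass without any 1 of libraries 1 to 5 (edgeR adjusted p from 0.123 to 0.249) or with the GC trend removed (0.114), fits in which 0 genes in all passed. For library 6 alone, where 94 genes passed, it did not pass either (1.69, edgeR adjusted p = 0.0502). Its log2 fold change stayed between 1.69 and 2.52 in all 19 alternatives. Cxcl1, a chemokine, had the highest fitted change among the targets and lay higher in all 3 forskolin libraries, at 5.01, 10.3 and 2.96 CPM against 0.820 to 1.22 CPM (log2 fold change 2.66 ± 0.50 (SE), edgeR adjusted p = 0.0613). With library 6 left out it rose by 2.97 (edgeR adjusted p = 0.00403). Sod2, the mitochondrial superoxide dismutase, had the lowest at -0.30 (edgeR adjusted p = 0.458). It was the target that fell without library 6 (-0.59, edgeR adjusted p = 0.0213), and for library 6 alone the value was 0.17. The authors' deposited table lists 4 of the 80 genes, Ptgs2, Tlr2, Cxcl10 and Ikbke, among its 132 genes, beside 37411 gene rows in the count table.

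**Figure D5:**
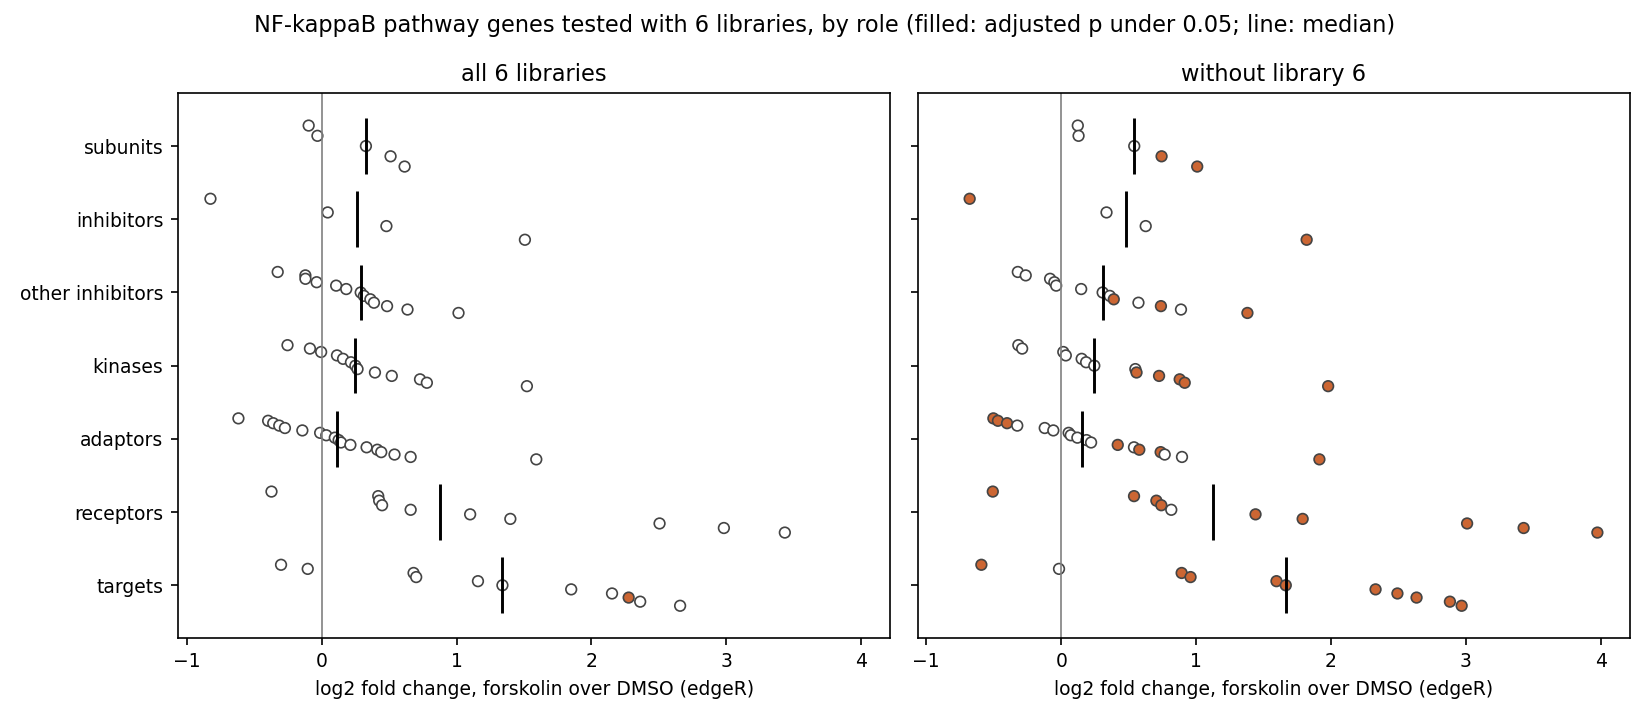
Fitted log2 fold change of each tested gene by role, with all 6 libraries on the left and the same genes without library 6 on the right; filled points have an edgeR adjusted p under 0.05 and lines mark medians. The median of the receptors is 0.88 on the left and 1.13 on the right, and that of the targets 1.34 and 1.66.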

How the data were processed

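Per the labels' protocols, Trizol with chloroform served to extract the RNA of the 3 DMSO and 3 forskolin samples, and sequencing libraries were of the Illumina type. The authors deposited whole-number counts per gene symbol, 1 column per library. The submitters' processing notes name Salmon, DESeq and GRCm38 without versions or roles. If Salmon made the counts, they are rounded estimates that share reads among similar transcripts. The strand setting and annotation are not given in the sources used here. The authors' deposited table holds log2 fold changes with their errors, a signal (the normalised count averaged over libraries), a test score and p-values, per the file headers.

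Genes were kept with filterByExpr (minimum count 10, minimum total 15), which left 16233. The fit used TMM factors, an intercept and the group, with glmQLFit and glmQLFTest of edgeR 4.0.16 in R 4.3.3, and Benjamini-Hochberg adjustment over all tested genes at a threshold of 0.05. Alternatives used DESeq2 1.42.0, limma 3.58.1 (voom, with and without library quality weights), other scaling factors and filters, a robust prior, removal of each library's lowess trend on GC content, and fewer libraries. The script was tested on simulated data. Transcript length, GC content and coordinates came from GENCODE M21 (GRCm38), and promoters from RefSeq (GRCm38.p6). Counts carry no molecular identifiers.

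The members, lists and tests were chosen with earlier results of these data known. All members were named. Of each pathway list, genes with an adjusted p under 0.05 were named (up to 4), with the highest and the lowest fitted change at a mean count of at least 20. For each tested member the 3 genes most like it at a mean count of at least 50 were found. They are printed for the inhibitors, other than 1 that is not reported here, and for each subunit the most alike gene is printed. Other names were chosen after their values were seen. Endothelial markers, 8 in number, summed to 21.7 to 52.0 CPM in the DMSO libraries and to 20.7 to 128 CPM in the forskolin libraries.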

Additional observations from a re-analysis of the deposited data

How the results depend on the processing

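No paired analysis was possible because the labels number the libraries 1 to 6 and no number is shared between the groups. The count of all genes called, 245, was 1775 with DESeq2, 6795 with library quality weights, 137 with RLE factors, 102 with upper-quartile factors, 0 with the GC trend removed (1947 at an unadjusted p under 0.05), 5432 with that and without library 6, and 94 for library 6 alone. Leaving out 1 library gave 0 to 5698, the latter without library 6 and 0 without each other. The count of members called, 0, was 2 with DESeq2, 4 with quality weights (Nfkb1, Nfkb2 and Nfkbiz higher, Nfkbib lower) and 5 with the GC trend removed and without library 6, and 0 to 5 with 1 library left out (both 5 include Bcl3, which did not pass the filter with all 6 libraries). The count of other pathway genes called, 1, was 16 with DESeq2, 38 with quality weights and 0 with the GC trend removed. It was 2 with library size alone, where 326 of all genes were called, and 2 with no low-count filter, where 212 of 26663 were. With the GC trend removed and without library 6 it was 38, and with 1 library left out 0 to 39. The 38 and the 39 of these fits include genes that did not pass the filter with all 6 libraries. Over the 65 genes tested with all 6, 28 were higher and 5 lower with the GC trend removed and without library 6. Without library 6 and with no GC correction, 29 of the 65 were higher and 5 lower.

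Nfkbiz and Tnfaip3 kept a positive and Nfkbib a negative log2 fold change in all 19 alternatives, with ranges of 0.50 to 1.86, 0.12 to 0.63 and -1.18 to -0.35. For library 6 alone the direction reversed for Nfkb1 (-0.14), Nfkb2 (-0.90), Rel (-0.25), Nfkbia (-0.85), Zc3h12a (-0.31), Ikbke (-0.63), Tnfrsf1b (-0.58) and Sod2 (0.17). Rela reversed with quality weights (0.12), upper-quartile factors (0.0125), the GC trend removed (0.41), that without library 6 (0.48), without library 1 (0.04) and without library 6 (0.12), within -0.16 to 0.12 with 1 library left out. Relb reversed with quality weights (0.11), the GC trend removed (0.18), that without library 6 (0.37) and without library 6 (0.13), within -0.28 to 0.13. Nfkbia reversed with limma-voom (-0.0516), library size alone (-0.0796) and without library 3 (-0.06), 4 (-0.0044) or 5 (-0.25), within -0.25 to 0.34. With the GC trend removed, alone and without library 6, Tnip1 was 0.0251 and 0.0188 and Tab1 0.13 and 0.0065. The causes were not tested. Library size alone moved the median of all genes from 0.02 to -0.09. Depth limits Bcl3, Rel and the ligand genes, where counting error adds to the spread.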
